A study of Homo sapiens with 13 samples.

Results

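Knockdown of BRCA1 was compared with a control siRNA in LNCaP-abl cells, a prostate cancer line derived from LNCaP that grows without androgen. The comparison holds 2 of the 13 libraries of the series, chosen by their labels: siBRCA1, which received a pool of siRNAs against BRCA1, and siControl2, which received a control siRNA. The other 11 libraries were siBRCA2, siCTCF, siEED, siEZH2, siFOXA1, siFOXM1, siKDM1A, siPCAT1, siRAD21, siSMARCA4 and a library labelled siMALAT1, and they serve here only to show how far each gene varies when something else is knocked down. All cells shared the line, the passage range, medium with charcoal-stripped serum and no phenol red, transfection with Lipofectamine RNAiMAX, and RNA taken after 72 h. Each group is 1 library of 1 line, so no difference below has a replicate check and none carries a p-value.

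BRCA1 is a tumor suppressor that pairs with BARD1 to form a ubiquitin ligase. With PALB2 and BRCA2 it acts at broken DNA in homologous recombination, and through other partners it acts at stalled replication forks and in cell cycle checkpoints. Inherited loss of BRCA1 function is best known from breast and ovarian cancer, and defects in the same repair pathway occur in a share of advanced prostate cancers. Most of its transcript is made in dividing cells, as for many repair genes.

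Levels are in FPKM, a count of fragments scaled to transcript length and to the fragments mapped, recovered from the deposited log2 values. A difference is siBRCA1 minus siControl2 in log2(FPKM + 1), and 2-fold means a difference of at least 1 on that scale, which understates the change of genes at low levels. The files held 22613 entries, of which 15786 genes had a mean of at least 0.5 FPKM over the 13 libraries and were kept. The deposited values had nearly the same distribution in every library, with sorted values at most 0.06 log2 units apart, and the number of reads behind them is unknown. The median difference over all genes kept was 0.02, with quartiles of -0.20 and 0.19.

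Luminal prostate markers were present: all 20 listed had an entry and reached 1 FPKM in some library. Their summed level was 1187 FPKM in siBRCA1 and 1368 FPKM in siControl2, against 1318 to 1753 FPKM in the other knockdowns. Markers of other cell types were low. The 9 basal epithelial markers with an entry, of 15 listed, summed to 12.2 FPKM in siBRCA1 and 17.8 FPKM in siControl2, and the 10 mesenchymal and matrix genes with an entry, of 20 listed, to 27.6 and 31.3 FPKM in siBRCA1 and siControl2. Of 12 leukocyte markers 4 had an entry and summed to 9.70 FPKM in siBRCA1 and 9.59 FPKM in siControl2, and of 10 endothelial markers 3 had an entry and summed to 1.42 FPKM in siBRCA1 and 1.44 FPKM in siControl2. Neuroendocrine markers, with 11 of 17 present, summed to 45.6 FPKM in siBRCA1 and 79.5 FPKM in siControl2, most of it ENO2, a neuronal enolase, at 29.8 FPKM in siBRCA1 and 54.6 FPKM in siControl2. No marker with an entry was at 0 in all libraries. In RNA from whole cultures, fewer cells of a type and less RNA per cell cannot be told apart.

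BRCA1 shares its promoter with NBR2, a noncoding gene read from the opposite strand. The RefSeq window of 250 bases before to 50 bases after the BRCA1 start lies at chr17:43125315-43125614 of GRCh38.p14 on the minus strand, and 292 of its 300 bases also lie in the window of NBR2. It is shown because an siRNA acts on the transcript and leaves this control region in place. Capitals mark the 50 transcribed bases of BRCA1.
BRCA1: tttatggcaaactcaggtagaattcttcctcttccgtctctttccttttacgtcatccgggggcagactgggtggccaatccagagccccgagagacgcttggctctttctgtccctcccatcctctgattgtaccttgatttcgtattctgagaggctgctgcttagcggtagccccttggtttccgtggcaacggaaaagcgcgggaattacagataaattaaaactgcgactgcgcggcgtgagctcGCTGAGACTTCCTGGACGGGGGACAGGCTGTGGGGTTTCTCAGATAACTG

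The targeted transcript was low. BRCA1 stood at 1.83 FPKM in siBRCA1 and 11.1 FPKM in siControl2, a difference of -2.10. Among the other 11 knockdowns it ranged from 1.31 FPKM in siFOXA1 through a median of 3.33 FPKM to 8.28 FPKM in siBRCA2. Thus siControl2 had the highest level of the 13 libraries, siBRCA1 had the third lowest, and siFOXA1 and siFOXM1 were lower still without an siRNA against BRCA1. Against the median of the other knockdowns the difference was -0.61. The level of BRCA1 thus sets siBRCA1 apart from siControl2 but not from every other library.

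Genes around BRCA1 stayed close to their control levels. NBR2, on the other side of the shared promoter, had 7.39 FPKM in siBRCA1 and 5.93 FPKM in siControl2, within the 5.66 to 10.1 FPKM of the other knockdowns. NBR1, an autophagy receptor and the next coding gene on that side, had 46.9 FPKM in siBRCA1 and 48.7 FPKM in siControl2. On the far side, VAT1 had 18.9 FPKM in siBRCA1 and 21.8 FPKM in siControl2. IFI35, an interferon-induced gene close by, had 11.1 FPKM in siBRCA1 and 10.4 FPKM in siControl2. None of these 4 neighbors differed 2-fold.

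Genes listed as BRCA1 complex partners also kept their transcript levels, in a list that counts the noncoding neighbor NBR2 as well. Of the 13 listed genes, all kept, 0 differed 2-fold in either direction and the median difference was 0.04. BARD1, the ring partner of BRCA1, had 19.7 FPKM in siBRCA1 and 18.3 FPKM in siControl2, against 8.14 to 19.6 FPKM elsewhere. Both libraries of the comparison were thus at or near the top for BARD1. The helicase BRIP1 had 2.93 FPKM in siBRCA1 and 4.07 FPKM in siControl2, the largest difference of the list at -0.37. PALB2, the bridge to BRCA2, had 3.01 FPKM in siBRCA1 and 3.65 FPKM in siControl2, and RBBP8, which starts end resection, had 7.62 FPKM in siBRCA1 and 9.10 FPKM in siControl2.

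The response as a whole was small beside those of the other knockdowns. In siBRCA1, 71 genes (0.45% of those kept) were at least 2-fold higher than in siControl2 and 149 genes (0.944%) at least 2-fold lower. The same counts in the other 11 knockdowns ran from 51 to 555 higher and from 117 to 666 lower, and 9 of the 11 exceeded siBRCA1 in each direction. At a fold of 1.5 there were 413 higher and 845 lower genes. All of these use the same control library, so a gene whose control value is unusual counts in every knockdown.

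siControl2 stood at an extreme for many of these genes. Of the 71 higher genes, 28 had their lowest value of the 13 libraries in siControl2, against 4.87% of all genes kept, and 5 were below the median of the other 11 knockdowns. Of the 149 lower genes, 61 had their highest value in siControl2, against 5.28% of all genes kept, and 35 were above that median. With siControl2 replaced by that median, 35 genes were 2-fold higher and 92 were 2-fold lower. Only 9 of the higher genes and 35 of the lower genes passed 2-fold against both.

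**Figure D1:**
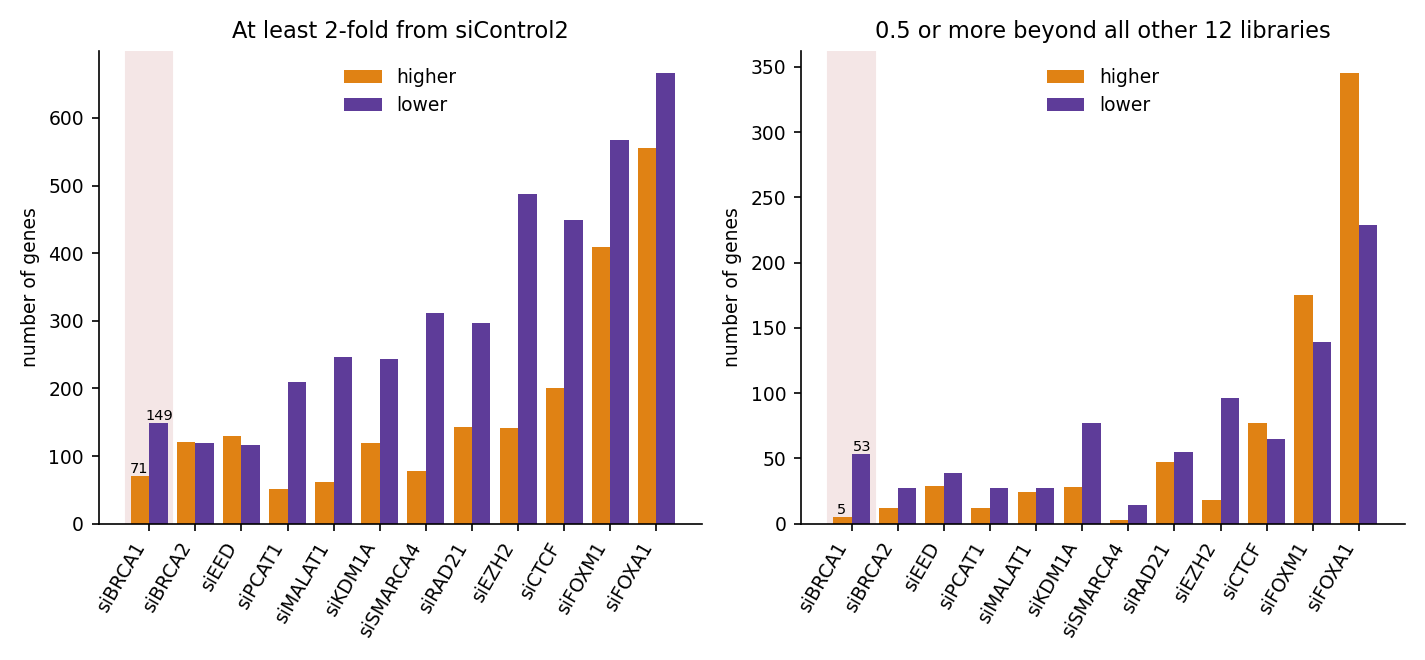
Number of genes at least 2-fold from siControl2 (left) and at least 0.5 log2 units beyond all other 12 libraries (right) in each of 12 knockdown libraries, higher in orange and lower in purple. siBRCA1, shaded, has 71 and 149 genes on the left and 5 and 53 on the right, and siFOXA1 has the most in every panel and direction.

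A second measure asked which genes lay at least 0.5 log2 units beyond all other 12 libraries. Here siBRCA1 had 5 genes above (0.0317% of those kept) and 53 below (0.336%). In the other 11 knockdowns the counts ran from 3 to 345 above and from 14 to 229 below, with medians of 28 and 55. siBRCA1 was therefore near the middle for genes set apart on the low side, and 10 of the other 11 knockdowns had more on the high side. Across all genes kept, siBRCA1 held the lowest value of the 13 libraries for 7.98% and the highest for 7.98%, while 52.3% of genes were above siControl2 by any amount. Of the 53 low genes 49 have a symbol and 17 were also 2-fold below siControl2. With a margin of 1 log2 unit, 4 low genes and 0 high genes remained.

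**Figure D2:**
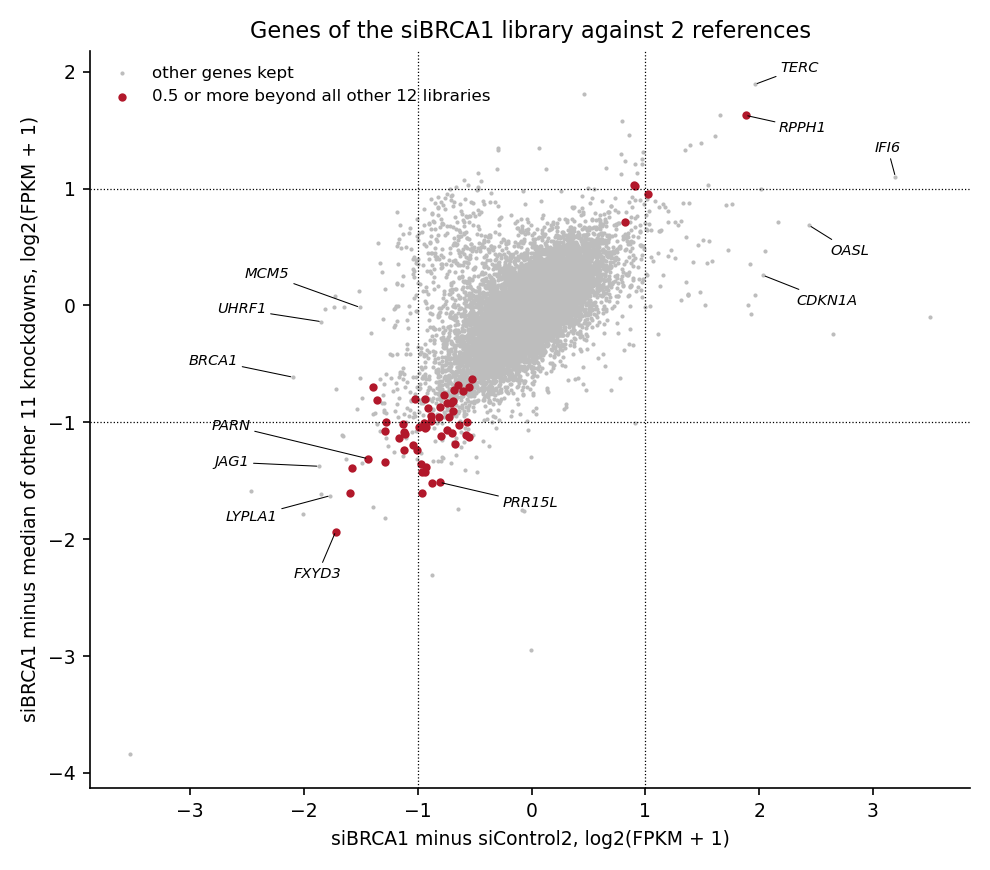
Difference of each gene kept in siBRCA1 from siControl2 (horizontal) and from the median of the other 11 knockdowns (vertical), both in log2(FPKM + 1), with dotted lines at 1 and -1 and genes at least 0.5 beyond all other 12 libraries in red. Most red genes lie in the lower left, while BRCA1, UHRF1, MCM5, CDKN1A and OASL are far from siControl2 and within 1 of the other knockdowns.

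The 4 genes with the widest margin were PARN, LOC284023, FXYD3 and IGSF3. PARN, a ribonuclease that trims poly(A) tails and the ends of small structured RNAs, had 6.33 FPKM in siBRCA1 and 18.9 FPKM in siControl2, with 15.2 to 19.97 FPKM in the other 11 knockdowns. Its 12 other values lie in a narrow band and siBRCA1 is 1.15 log2 units under the lowest of them. FXYD3, a small membrane protein that regulates the sodium pump, had 1.99 FPKM in siBRCA1 and 8.86 FPKM in siControl2, against 5.55 to 16.8 FPKM elsewhere. IGSF3, a cell surface protein of the immunoglobulin superfamily, had 1.96 FPKM in siBRCA1 and 5.45 FPKM in siControl2, against 5.01 to 11.4 FPKM elsewhere. LOC284023, a noncoding entry, had 2.49 FPKM in siBRCA1 and 7.48 FPKM in siControl2, against 6.68 to 8.71 FPKM elsewhere. In all 4 the siBRCA1 library stands alone at the low end.

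Several other low genes encode enzymes and regulators with wide roles. WWP2, a ubiquitin ligase of the NEDD4 family, had 10.1 FPKM in siBRCA1 and 23.3 FPKM in siControl2, against 19.9 to 31.97 FPKM elsewhere. Its close relative WWP1 had 7.22 FPKM in siBRCA1 and 15.3 FPKM in siControl2, against 13.8 to 21.0 FPKM elsewhere. Both were set apart, while 2 relatives from a list added after values were seen, ITCH and SMURF2, had their highest value of the 13 libraries in siBRCA1. ITCH had 13.5 FPKM in siBRCA1 and 10.5 FPKM in siControl2, and SMURF2 had 7.42 FPKM in siBRCA1 and 5.805 FPKM in siControl2.

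The subunits of NF-Y, the factor that binds CCAAT boxes, were split in the same way. NFYC had 8.89 FPKM in siBRCA1 and 19.4 FPKM in siControl2, against 16.04 to 25.6 FPKM elsewhere, and was set apart. NFYA had 12.9 FPKM in siBRCA1 and 9.37 FPKM in siControl2, against 8.28 to 10.7 FPKM elsewhere, and NFYB had 10.5 FPKM in siBRCA1 and 9.11 FPKM in siControl2, against 5.59 to 9.53 FPKM elsewhere. So siBRCA1 had the lowest NFYC and the highest NFYA and NFYB of the 13 libraries. MAT2B, the regulatory subunit of methionine adenosyltransferase, had 16.8 FPKM in siBRCA1 and 42.4 FPKM in siControl2, against 25.2 to 49.2 FPKM elsewhere. CAT, the catalase that breaks down hydrogen peroxide, had 35.3 FPKM in siBRCA1 and 72.0 FPKM in siControl2, against 64.9 to 112 FPKM elsewhere.

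**Figure D3:**
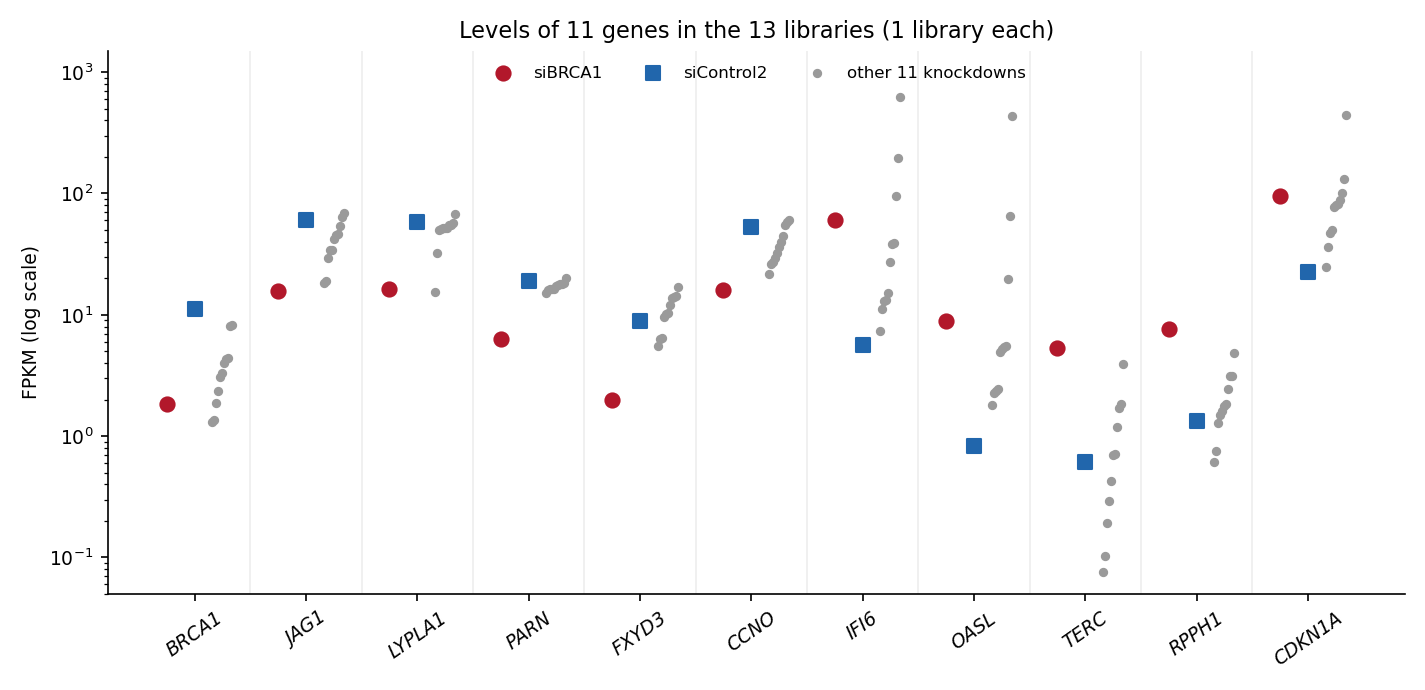
FPKM on a log axis of 11 genes in the 13 libraries, with siBRCA1 as a red circle, siControl2 as a blue square and the other 11 knockdowns as gray points in ascending order. PARN and FXYD3 in siBRCA1 lie under all 12 other values, and for IFI6, OASL and CDKN1A siControl2 is the lowest of the 13.

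Genes of fatty acid oxidation were slightly lower on balance. Of 29 ketogenesis and fatty acid oxidation genes kept, a list added after values were seen, 21 were below siControl2 and 8 above. Among them 2 were 2-fold lower and 0 were 2-fold higher, and differences ran from -3.53 to 0.25. Their median was -0.134, and the medians of the other knockdowns ran from -0.123 to 0.352. ACAA2, the thiolase of the last step of mitochondrial fatty acid oxidation, had 3.76 FPKM in siBRCA1 and 7.77 FPKM in siControl2, against 6.34 to 13.2 FPKM elsewhere, and was set apart. CPT1A, which admits fatty acids to mitochondria, had 26.6 FPKM in siBRCA1 and 39.6 FPKM in siControl2, inside the 20.2 to 54.6 FPKM of the other knockdowns. HMGCS1, an enzyme of cholesterol synthesis, was highest of the 13 libraries in siBRCA1, with 99.3 FPKM against 59.1 FPKM in siControl2 and 52.2 to 89.5 FPKM elsewhere.

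Genes of the Notch pathway were lower on balance. Notch receptors are cut when a ligand on a neighboring cell binds them, and the freed part joins RBPJ to switch on genes of the HES and HEY families. Of 28 members kept, 22 were below siControl2, 1 was 2-fold lower and 0 were 2-fold higher, with a median of -0.26. Over all genes kept the corresponding median was 0.02, and the medians of the other knockdowns for this list ran from -0.27 in siBRCA2 to 0.04. siBRCA2 was the only library with a lower Notch median than siBRCA1, and both share siControl2. Against the median of the other knockdowns the list median was -0.17, with 20 members below and 8 above.

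Among the ligands JAG1 was the member past 2-fold. It had 15.7 FPKM in siBRCA1 and 60.1 FPKM in siControl2, with 18.4 FPKM in siFOXA1, 18.8 FPKM in siBRCA2 and 29.2 to 68.5 FPKM in the remaining 9. Low JAG1 was therefore shared with 2 other knockdowns. JAG2 had 14.6 FPKM in siBRCA1 and 18.7 FPKM in siControl2, and differed by 0.01 from the median of the other knockdowns.

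Of the receptors, NOTCH3 had 5.03 FPKM in siBRCA1 and 10.4 FPKM in siControl2, against 5.26 FPKM in siBRCA2 and up to 10.8 FPKM elsewhere. NOTCH1 had 2.16 FPKM in siBRCA1 and 3.61 FPKM in siControl2, and its lowest value elsewhere was 2.23 FPKM. Each had its lowest value of the 13 libraries in siBRCA1, by a narrow margin. Of the target genes, HES1 had 3.09 FPKM in siBRCA1 and 5.28 FPKM in siControl2, HES4 had 2.69 FPKM in siBRCA1 and 6.34 FPKM in siControl2, and HEY1 had 2.82 FPKM in siBRCA1 and 3.43 FPKM in siControl2. Against the median of the other knockdowns HES1 differed by -0.75, HES4 by -0.58 and HEY1 by 0.05. RBPJ, with 22.2 FPKM in siBRCA1 and 21.3 FPKM in siControl2, and ADAM17, a protease that cuts Notch, with 9.45 FPKM in siBRCA1 and 6.92 FPKM in siControl2, were at their highest of the 13 libraries in siBRCA1. In the list of 28, siBRCA1 held the highest value for 2 members and the lowest for 4. Over all genes kept each share was 7.98%.

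Of the 5 genes set apart on the high side, 3 have a symbol, and these are noncoding. RPPH1 is the RNA of ribonuclease P, which trims the front of transfer RNAs. It had 7.60 FPKM in siBRCA1 and 1.33 FPKM in siControl2, with 0.61 to 4.84 FPKM in the other knockdowns. LINC00478 had 8.17 FPKM in siBRCA1 and 3.93 FPKM in siControl2, against 2.28 to 4.89 FPKM elsewhere, and MME-AS1 had 4.01 FPKM in siBRCA1 and 1.47 FPKM in siControl2, against 0.93 to 2.42 FPKM elsewhere. The remaining 2 entries set apart on the high side have no symbol. Antisense entries such as MME-AS1 are uncertain, since no source used here says whether counting used strand.

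TERC, the RNA template of telomerase, was also highest in siBRCA1. TERC ends in an H/ACA fold with a box ACA, the element that it shares with H/ACA nucleolar RNAs and many small Cajal body RNAs, and on which the proteins DKC1, NHP2, NOP10 and GAR1 assemble. The last 60 bases of its RefSeq span, chr3:169764610-169764669 of GRCh38 on the minus strand, are shown because they hold this box. Capitals mark the box, which 3 bases follow. PARN is known to trim the end after it, but whether the low PARN of siBRCA1 bears on TERC was not tested.
TERC: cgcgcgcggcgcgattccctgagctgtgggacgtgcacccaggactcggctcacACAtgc

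TERC had 5.28 FPKM in siBRCA1 and 0.61 FPKM in siControl2, with 0.08 to 3.93 FPKM and a median of 0.69 FPKM in the other knockdowns. The proteins of its particle were not 2-fold different. DKC1, the pseudouridine synthase, had 48.2 FPKM in siBRCA1 and 56.1 FPKM in siControl2, NHP2 had 117 FPKM in siBRCA1 and 100.2 FPKM in siControl2, and WRAP53, which leads the particle to Cajal bodies, had 7.45 FPKM in siBRCA1 and 11.5 FPKM in siControl2. TERT, the catalytic subunit, was under the minimum, at 0.22 FPKM in siBRCA1 and 0.32 FPKM in siControl2. In the list of 17 telomerase and telomere members kept, TERC was the only member past 2-fold, and the median difference was 0.09.

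Small RNA entries were left out of the genes kept by their symbols, because RNAs shorter than a sequenced fragment have unstable FPKM. Some short RNAs with other symbols, such as VTRNA1-1, stayed among the genes kept, with the same limit. The small RNA entries were examined after their values were seen. Of 646 entries over the minimum, 26.3% were 2-fold higher in siBRCA1 and 11.6% had their highest value of the 13 libraries there. Classes were assigned by symbol alone, so which Cajal body entries carry a box ACA was not checked. Each class can be read against these shares. Of 20 small Cajal body RNAs, which guide the modification of spliceosomal RNAs, 7 were 2-fold higher, 1 was 2-fold lower and 8 were highest of the 13 in siBRCA1, while no other knockdown held the highest value for more than 3. Their median difference was 0.52, against -0.41 to 0.33 in the other knockdowns, and their summed level was 301 FPKM in siBRCA1 and 182 FPKM in siControl2, against 102 to 271 FPKM elsewhere.

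Of 97 H/ACA nucleolar RNAs, which guide pseudouridine sites in ribosomal RNA, 30 were 2-fold higher, 12 were 2-fold lower and 21 were highest of the 13 in siBRCA1. Their median was 0.34, against -0.40 to 0.15 in the other knockdowns, and 12 of them were listed at 0 in siControl2. The C/D nucleolar RNAs, which lack the box ACA and guide methylation, had a median of 0.13 over 150 entries, with 39 entries 2-fold higher and 21 lower. Of these, 15 were highest of the 13 in siBRCA1, while siEED held the highest value for 25, and their summed level of 29607 FPKM in siBRCA1 and 25973 FPKM in siControl2 lay within the 18268 to 32405 FPKM of the other knockdowns. For C/D RNAs the shares 2-fold higher and highest of the 13 were thus not above those of all small RNA entries. For H/ACA RNAs the share 2-fold higher was only slightly above the 26.3% of all small RNA entries. Their share highest of the 13 was above the 11.6% of all small RNA entries. The 371 microRNA entries had a median of 0, with 92 entries 2-fold higher and 64 lower, and 132 listed at 0 in both libraries. They make up most of the 646 entries behind these shares. Of the 8 other small RNA entries 2 were 2-fold higher and 2 lower. Counts of 2-fold lower entries are given by class only. In each of the 3 Cajal body and nucleolar classes the siBRCA1 median was above those of all 11 other knockdowns. In siControl2, 4 of the 20 Cajal body RNAs and 28 of the 150 C/D RNAs were also listed at 0. Over all 22613 entries siBRCA1 had the fewest at 0, with 1528, against 1580 in siControl2 and up to 1821 elsewhere. Whether this bears on the class medians was not tested.

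Single entries show the size of these values. SCARNA13 had 15.5 FPKM in siBRCA1 and 0.96 FPKM in siControl2, with 0.01 to 2.77 FPKM elsewhere. SCARNA9 had 7.88 FPKM in siBRCA1 and 1.36 FPKM in siControl2, with 0.03 to 4.45 FPKM elsewhere, and SCARNA16 had 29.3 FPKM in siBRCA1 and 7.08 FPKM in siControl2, with 3.05 to 11.7 FPKM elsewhere. The siBRCA1 value is the highest of the 13 in these 3 entries. SCARNA4 went the other way, with 3.57 FPKM in siBRCA1 and 9.15 FPKM in siControl2. SNORA19, an H/ACA RNA, had 27.9 FPKM in siBRCA1 and 3.30 FPKM in siControl2, with 0 to 12.5 FPKM elsewhere.

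**Figure D4:**
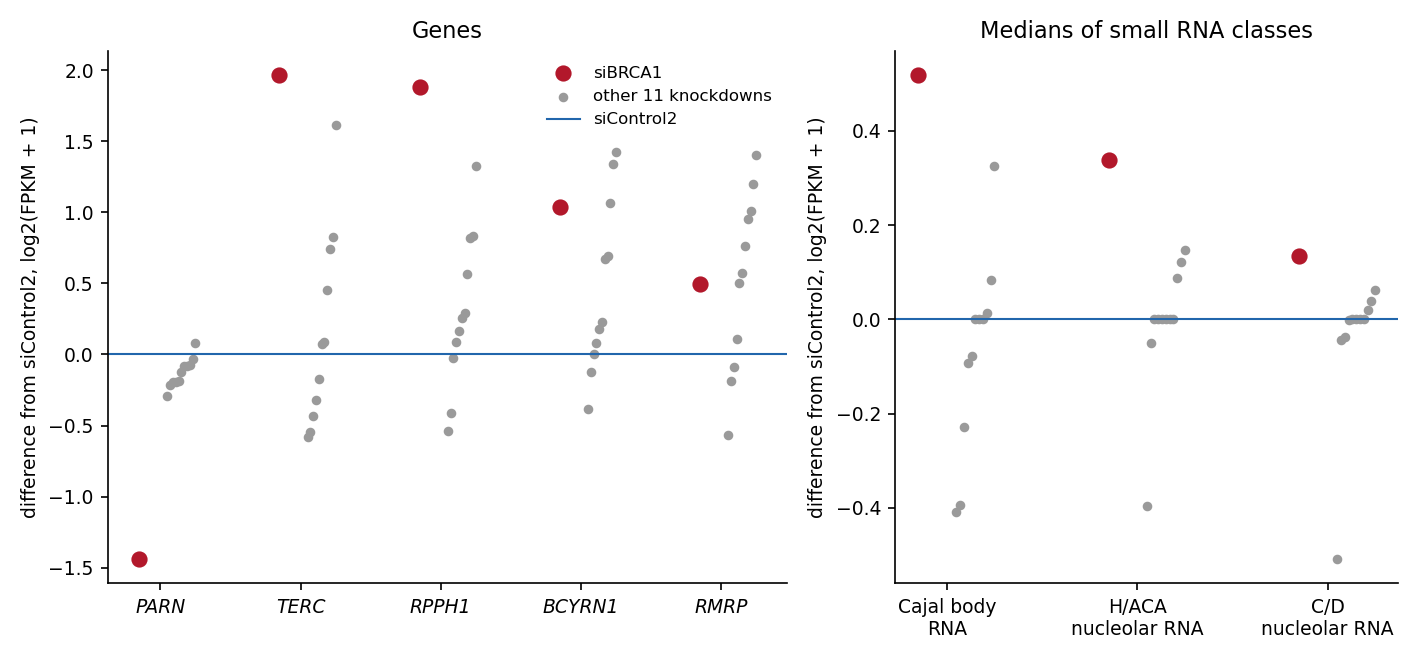
Differences from siControl2 in log2(FPKM + 1) of PARN and 4 structured noncoding RNAs (left) and medians of 3 small RNA classes (right), with siBRCA1 in red and the other 11 knockdowns in gray in ascending order. siBRCA1 is lowest for PARN, at -1.44, and highest for TERC, RPPH1 and the 3 class medians, but not for BCYRN1 or RMRP.

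TERC and RPPH1 belong to a list of structured noncoding RNAs of polymerases II and III with 7 members kept, of which 4 were 2-fold higher in siBRCA1 and 0 lower. The list median was 1.04, against -0.19 to 0.83 in the other knockdowns, but -0.08 when siBRCA1 was set against the median of those knockdowns. VTRNA1-1, a vault RNA, was listed at 10.3 FPKM in siBRCA1 and at 0 in siControl2, and ran from 0 to 13.01 FPKM elsewhere. BCYRN1, the fourth member past 2-fold, had 352 FPKM in siBRCA1 and 171 FPKM in siControl2, inside the 131 to 461 FPKM of the other knockdowns, and RMRP had 2.55 FPKM in siBRCA1 and 1.52 FPKM in siControl2. Among 23 RNA exonucleases and deadenylases, a list added after values were seen, PARN was the only member 2-fold lower and 0 were 2-fold higher. EXOSC3, a subunit of the RNA exosome, had 7.64 FPKM in siBRCA1 and 13.95 FPKM in siControl2. TOE1, another nuclease of snRNA ends, had 4.31 FPKM in siBRCA1 and 5.06 FPKM in siControl2. A link between low PARN and these RNAs was not tested.

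Interferon-stimulated genes included some of the largest increases over siControl2. These genes are switched on by factors that bind an interferon-stimulated response element, searched here on either strand as 2 copies of GAAA with 2 bases of any kind between them. In RefSeq promoter windows of 300 bases the 30 of 37 members kept that matched have 42 windows, since a gene can have several starts. The letters occur in 29 of these 42 windows (69.0%) and in 3.57% of 35116 windows in all, and a match is a description of the letters and not a site. The windows of 3 members that were 2-fold higher are shown, with matches in capitals, on the strand of the gene. They lie at chr1:27672143-27672442 on the minus strand, chr10:89392373-89392672 on the plus strand and chr1:1013247-1013546 on the plus strand of GRCh38.p14. In IFIT1 the capitals are matches on the opposite strand, and in ISG15 a pair of matches overlaps.
IFI6: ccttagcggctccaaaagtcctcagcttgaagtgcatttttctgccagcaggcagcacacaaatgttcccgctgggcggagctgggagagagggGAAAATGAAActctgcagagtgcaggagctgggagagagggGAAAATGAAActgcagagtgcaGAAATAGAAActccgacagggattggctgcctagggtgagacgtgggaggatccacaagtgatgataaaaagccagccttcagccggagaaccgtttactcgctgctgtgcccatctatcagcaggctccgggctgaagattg
IFIT1: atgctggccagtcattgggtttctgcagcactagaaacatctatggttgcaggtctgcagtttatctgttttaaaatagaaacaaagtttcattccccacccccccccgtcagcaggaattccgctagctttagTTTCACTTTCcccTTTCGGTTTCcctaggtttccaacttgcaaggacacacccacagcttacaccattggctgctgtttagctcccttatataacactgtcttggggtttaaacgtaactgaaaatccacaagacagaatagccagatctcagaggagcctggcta
ISG15: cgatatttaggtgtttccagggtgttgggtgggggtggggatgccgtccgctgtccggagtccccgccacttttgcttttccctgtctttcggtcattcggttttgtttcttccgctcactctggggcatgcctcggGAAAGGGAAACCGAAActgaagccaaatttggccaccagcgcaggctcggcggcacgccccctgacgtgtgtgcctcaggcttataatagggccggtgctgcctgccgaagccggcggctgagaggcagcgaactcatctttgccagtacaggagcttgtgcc

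Of the 37 members, 8 were 2-fold higher in siBRCA1 (IFI6, OASL, IFIT1, RSAD2, ISG15, IFI27, IFIT2 and IFIT3), 0 were 2-fold lower, and 28 were above siControl2, with a median of 0.21. IFIT1, which binds foreign RNA ends, had 12.96 FPKM in siBRCA1 and 2.10 FPKM in siControl2, with 2.60 to 269 FPKM and a median of 7.49 FPKM in the other knockdowns. ISG15, a ubiquitin-like modifier, had 43.3 FPKM in siBRCA1 and 14.6 FPKM in siControl2, with 15.6 to 595 FPKM elsewhere. IFI6 had 59.9 FPKM in siBRCA1 and 5.65 FPKM in siControl2, with 7.35 to 622 FPKM elsewhere. siControl2 was the lowest of the 13 libraries for 7 of the 8 genes, siBRCA2 was above siBRCA1 for all 8, and siFOXM1 was the highest for each.

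Against the median of the other knockdowns the list as a whole was flat, with a list median of 0.03, 19 members above and 18 below. The 8 genes named above still lay higher than that reference, from 0.20 for IFIT2 to 1.10 for IFI6. Of the 11 other list medians against siControl2, 8 were higher than that of siBRCA1, up to 2.17 in siFOXM1. MX1, another antiviral gene of the list, differed by 0.02, and OAS3 by -0.52. Of the genes upstream, 17 nucleic acid sensors and adaptors had a median of -0.21 and 20 interferon ligands, receptors and signalling genes had a median of 0.05, with 0 past 2-fold in both lists. Both medians were below those of all 11 other knockdowns. Against the median of the other knockdowns the sensor list was at -0.10 with 13 of 17 members below, and the signalling list at -0.12 with 17 of 20 below. IRF9, a subunit of the factor that binds the element above, had 7.39 FPKM in siBRCA1 and 4.28 FPKM in siControl2, against 5.02 to 81.7 FPKM elsewhere.

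Most cell cycle genes were lower than in siControl2. Many genes of G2 and mitosis carry a CCAAT box together with a CHR element, here searched as TTTGAA, through which they are held down in resting cells and switched on by factors such as FOXM1. In 300-base RefSeq promoter windows, on either strand, 19 of the 31 windows of 28 matched G2/M members (61.3%) held both, against 2 of the 38 windows of 28 matched G1/S members (5.26%) and 5.90% of all windows. CCAAT, with or without TTTGAA, occurred in 34.6% of all windows, and TTTGAA, with or without CCAAT, in 15.2%. The windows of CDCA3, the G2/M member with the largest difference, and of PLK1, the kinase of mitotic entry, are shown with both elements in capitals. They lie at chr12:6851237-6851536 on the minus strand and chr16:23678639-23678938 on the plus strand of GRCh38.p14.
CDCA3: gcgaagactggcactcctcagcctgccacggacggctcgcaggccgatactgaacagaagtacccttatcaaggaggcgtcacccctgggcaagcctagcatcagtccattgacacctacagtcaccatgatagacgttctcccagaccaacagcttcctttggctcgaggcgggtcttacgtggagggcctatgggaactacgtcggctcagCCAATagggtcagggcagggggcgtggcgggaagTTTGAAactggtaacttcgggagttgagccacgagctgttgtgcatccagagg
PLK1: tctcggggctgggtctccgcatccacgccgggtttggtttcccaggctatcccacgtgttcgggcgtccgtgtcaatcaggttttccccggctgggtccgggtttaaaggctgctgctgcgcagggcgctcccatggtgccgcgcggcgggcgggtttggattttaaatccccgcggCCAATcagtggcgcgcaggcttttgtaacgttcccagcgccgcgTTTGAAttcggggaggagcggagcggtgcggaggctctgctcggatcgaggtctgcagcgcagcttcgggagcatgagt

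All 34 G2/M members were below siControl2, 8 of them 2-fold lower and 0 higher, with a median of -0.85. CDCA3, an adaptor for mitotic protein breakdown, had 13.2 FPKM in siBRCA1 and 35.3 FPKM in siControl2, with 2.38 to 28.3 FPKM in the other knockdowns. PLK1 had 15.9 FPKM in siBRCA1 and 36.3 FPKM in siControl2, with 2.41 to 29.5 FPKM elsewhere. siControl2 held the highest of the 13 values for 30 of the 34 genes, and in siBRCA1 all 34 lay above the middle value of the other 11 knockdowns, against which the list median was 0.67. FOXM1 itself had 9.32 FPKM in siBRCA1 and 20.1 FPKM in siControl2, with 0.47 FPKM in siFOXM1 and up to 15.6 FPKM elsewhere.

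Of the 32 G1/S members 30 were below siControl2, 7 were 2-fold lower and 0 were 2-fold higher, with a median of -0.72. UHRF1, which maintains DNA methylation at the fork, had 2.44 FPKM in siBRCA1 and 11.4 FPKM in siControl2, with 0.61 to 8.99 FPKM elsewhere. MCM5, a subunit of the replicative helicase, had 10.5 FPKM in siBRCA1 and 31.7 FPKM in siControl2, with 2.41 to 24.9 FPKM elsewhere. For the whole list, siControl2 was highest of 13 for 27 genes, and against the median of the other knockdowns the list median was 0.45. CCNE2, the cyclin that starts S phase with CDK2, departed from the list with 20.9 FPKM in siBRCA1 and 19.9 FPKM in siControl2, against 3.74 to 14.7 FPKM elsewhere.

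DNA repair genes followed the same order. Of 25 homologous recombination genes 21 were below siControl2, 1 was 2-fold lower and 0 were 2-fold higher, with a median of -0.38. The member past 2-fold, the end-resecting nuclease EXO1, had 3.29 FPKM in siBRCA1 and 7.59 FPKM in siControl2, with 0.28 to 5.52 FPKM elsewhere. BRCA2 had 2.41 FPKM in siBRCA1 and 3.25 FPKM in siControl2, with 0.29 to 2.71 FPKM elsewhere. In siBRCA1, 22 of the 25 genes were above the median of the other knockdowns, where the list median was 0.52.

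In the complex that first binds broken ends, RAD50 and NBN departed from this order and MRE11A did not. RAD50 had 16.3 FPKM in siBRCA1 and 13.5 FPKM in siControl2, with 10.7 to 15.9 FPKM elsewhere, and NBN had 28.996 FPKM in siBRCA1 and 21.96 FPKM in siControl2, with 12.1 to 25.6 FPKM elsewhere. Both were highest of the 13 libraries in siBRCA1, while their partner MRE11A had 5.22 FPKM in siBRCA1 and 8.10 FPKM in siControl2. Of the 25 homologous recombination genes 2 were highest of the 13 in siBRCA1, near the 7.98% of all genes kept. Fanconi anemia genes, which act with BRCA1 at crosslinks, had a median of -0.39 against siControl2 and 0.17 against the other knockdowns, over 15 members with 0 past 2-fold. FANCD2, the clamp that marks the damaged site, had 6.82 FPKM in siBRCA1 and 13.4 FPKM in siControl2. End joining and resection control had a median of -0.13 over 19 members with 0 past 2-fold. XRCC1, a scaffold of single-strand break repair, was lowest of the 13 in siBRCA1, with 3.85 FPKM against 7.43 FPKM in siControl2 and 4.13 to 8.44 FPKM elsewhere.

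Of 18 DNA damage checkpoint genes 14 were below siControl2, 1 was 2-fold lower and 0 were 2-fold higher, with a median of -0.31, or 0.28 against the other knockdowns. H2AFX, the histone that is phosphorylated around breaks, had 41.6 FPKM in siBRCA1 and 95.0 FPKM in siControl2, with 17.3 to 49.1 FPKM elsewhere, so that siControl2 stood well above the 12 knockdowns. ATM, the kinase that senses breaks, had 5.22 FPKM in siBRCA1 and 4.38 FPKM in siControl2, and ATR, its counterpart at stalled forks, had 6.12 FPKM in siBRCA1 and 6.03 FPKM in siControl2. RAD17 and HUS1, which load and form the checkpoint clamp, were highest of the 13 in siBRCA1. RAD17 had 20.8 FPKM in siBRCA1 and 19.1 FPKM in siControl2, and HUS1 had 13.1 FPKM in siBRCA1 and 10.5 FPKM in siControl2.

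Targets of p53 were higher than in siControl2. Of 26 members 24 were above it, 1 was 2-fold higher and 0 were 2-fold lower, with a median of 0.42. CDKN1A, the p21 inhibitor of cyclin-dependent kinases, had 95.4 FPKM in siBRCA1 and 22.5 FPKM in siControl2, with 24.99 FPKM in siPCAT1, a median of 79.7 FPKM and 440 FPKM in siCTCF among the other knockdowns. TRIAP1, a small p53-induced survival factor, had 56.1 FPKM in siBRCA1 and 31.7 FPKM in siControl2, with 22.4 to 70.2 FPKM elsewhere. MDM2, the ligase that degrades p53, had 27.7 FPKM in siBRCA1 and 17.3 FPKM in siControl2. Against the median of the other knockdowns the list median was 0.09, and siControl2 was the lowest of 13 for 10 of the 26 genes.

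Genes of the responses to amino acid shortage, misfolded protein and oxidation differed little as lists. Of 22 ATF4 and unfolded protein response genes, 2 were 2-fold higher and 0 lower, with a median of 0.20 against siControl2 and 0.0051 against the other knockdowns, where 11 were above and 11 below. DNAJB9, a chaperone of the endoplasmic reticulum, had 38.5 FPKM in siBRCA1 and 15.9 FPKM in siControl2, with 15.1 to 48.7 FPKM elsewhere, and CHAC1, which breaks down glutathione, had 5.98 FPKM in siBRCA1 and 2.19 FPKM in siControl2, with 1.83 to 12.6 FPKM elsewhere. Neither left the range of the other knockdowns. Of 19 NRF2 antioxidant genes 11 were above siControl2 and 0 passed 2-fold. Their median was 0.14 against siControl2 and 0.047 against the other knockdowns, and -0.0088 against siControl2 without the filter on low values. Genes of glutathione synthesis had the largest differences: SLC7A11, the cystine importer, had 32.2 FPKM in siBRCA1 and 15.8 FPKM in siControl2, with 9.02 to 41.2 FPKM elsewhere, and GCLC, the limiting enzyme, had 94.8 FPKM in siBRCA1 and 49.3 FPKM in siControl2, with 42.2 to 115 FPKM elsewhere. siBRCA1 held the second highest value of the 13 libraries for both.

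Lineage and structure genes were lower in siBRCA1 than in siControl2 and, for many of them, than in the other knockdowns. Of 20 luminal prostate markers 14 were below siControl2, 1 was 2-fold lower, 0 were 2-fold higher, and 5 were lowest of the 13. The median was -0.26, under those of all 11 other knockdowns, which ran from -0.06 to 0.30. This place was not particular to luminal markers. The siBRCA1 medians of other lists, such as androgen-induced genes, neuroendocrine markers and the BCL2 family, were also under all 11. KRT8, a luminal keratin, had 84.2 FPKM in siBRCA1 and 127 FPKM in siControl2, with 95.4 to 223 FPKM elsewhere. CLDN4, a tight junction protein, had 40.6 FPKM in siBRCA1 and 51.6 FPKM in siControl2, with 55.6 to 134 FPKM elsewhere. KRT19 was listed at 0.12 FPKM in siBRCA1 and 2.71 FPKM in siControl2, with 0.24 to 17.2 FPKM elsewhere. TMPRSS2, an androgen-induced protease, had 14.6 FPKM in siBRCA1 and 19.4 FPKM in siControl2, with 16.8 to 52.8 FPKM elsewhere, and the list of 18 androgen-induced genes had a median of -0.20 with 0 past 2-fold.

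Actin cytoskeleton and adhesion genes form a list put together after values were seen. It holds genes already found to be set apart, so its counts and median only describe its members. Of 27 kept, 25 were below siControl2, 5 were 2-fold lower, 0 were 2-fold higher, and 13 were lowest of the 13 libraries. The median was -0.63 against siControl2 and -0.60 against the median of the other knockdowns, and the 11 other medians against siControl2 ran from -0.27 to 0.33. FLNA, the filamin that crosslinks actin, had 10.8 FPKM in siBRCA1 and 25.8 FPKM in siControl2, with 14.4 to 30.2 FPKM elsewhere. MYH9, the heavy chain of nonmuscle myosin, had 59.1 FPKM in siBRCA1 and 105 FPKM in siControl2, with 87.0 to 125 FPKM elsewhere. LASP1, an actin-binding adaptor, had 22.4 FPKM in siBRCA1 and 44.1 FPKM in siControl2, with 36.2 to 67.4 FPKM elsewhere. AHNAK, a giant scaffold under the membrane, had 3.46 FPKM in siBRCA1 and 7.16 FPKM in siControl2, with 5.97 to 18.2 FPKM elsewhere. In these 4 genes siBRCA1 is the lowest library and siControl2 lies among the rest. siControl2 was highest or lowest of the 13 for 0 of the 27 genes.

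**Figure D5:**
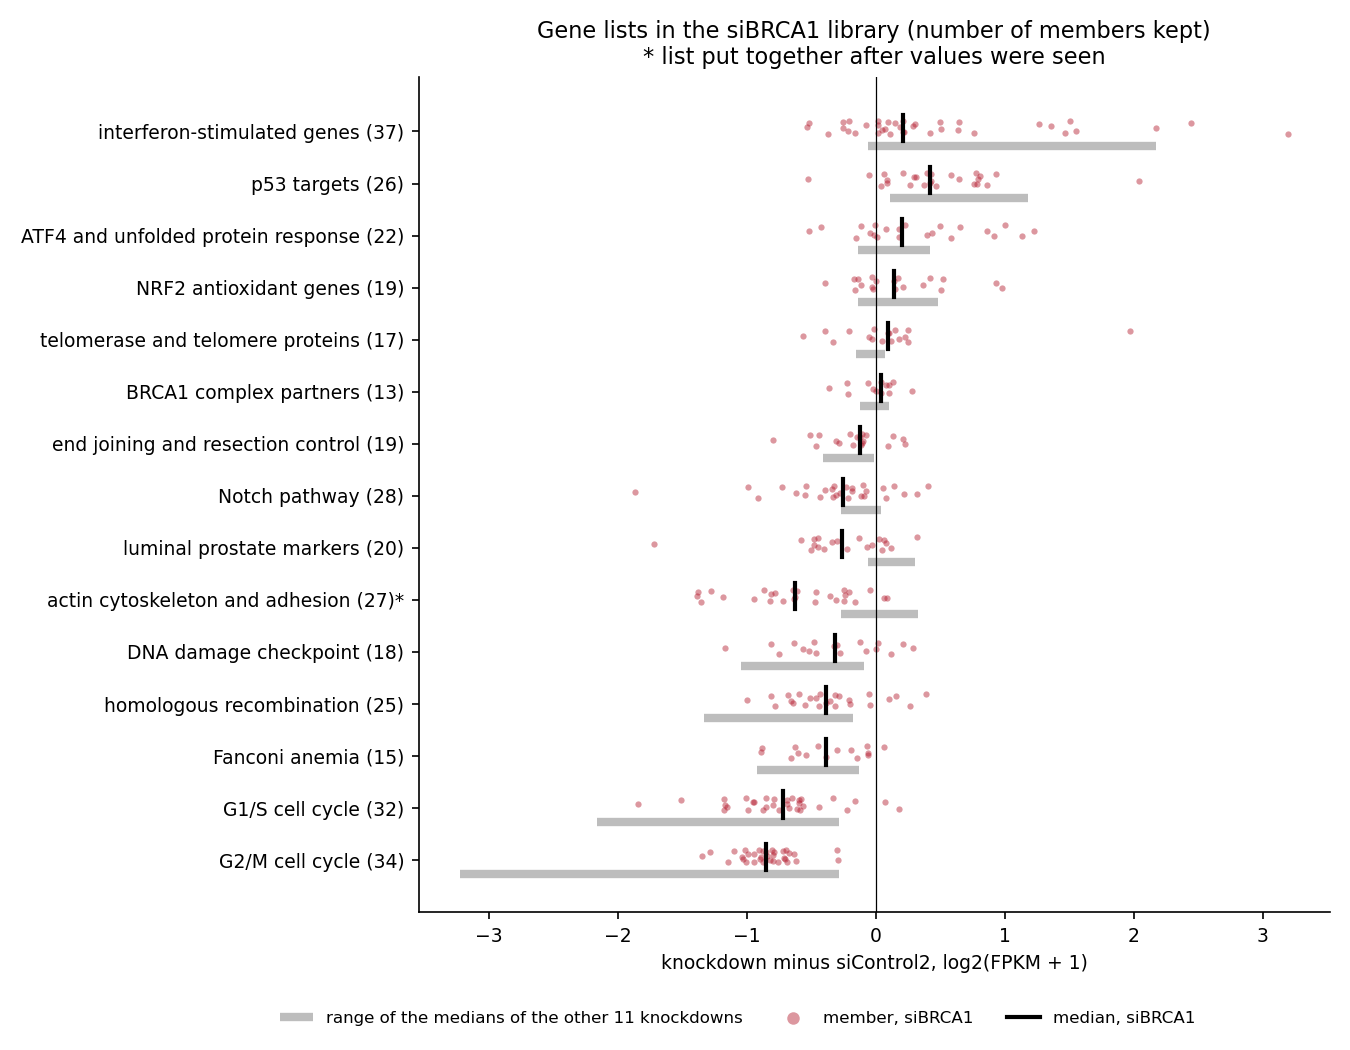
Differences of list members in siBRCA1 from siControl2 in log2(FPKM + 1), 1 red point per gene kept, with the siBRCA1 median as a black line and the range of the medians of the other 11 knockdowns as a gray bar. The luminal median, at -0.26, lies left of its gray bar, as does the actin median, at -0.63, whose list was put together after values were seen. Those of the cell cycle, repair, p53 and interferon-stimulated lists lie inside theirs.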

How the data were processed

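RNA from LNCaP-abl cells was taken 72 h after siRNA transfection and sequenced as TruSeq libraries on an Illumina HiSeq instrument, per the labels' protocols. The submitters' processing notes name TopHat, Cufflinks and hg19. The deposited files hold 1 log2 value per entry, and no source used here says what else the authors did to make them. Their floor equals the log2 of 0.1, so FPKM was taken as 2 to the value minus 0.1, with a floor of 0. The offset is inferred, and the depth is unknown. Values below 1e-09 FPKM were set to 0. Genes with a mean of at least 0.5 FPKM over the 13 libraries were kept, and 749 small RNA entries were left out. Every difference is in log2(FPKM + 1), computed with pandas 2.3.3 and numpy 2.4.6 under Python 3.11.15, and the calculation was tested on simulated data.

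There is no test, because each group has 1 library. The members, lists and rules were chosen with earlier results of these data known. Genes named are BRCA1 and its neighbors, the siRNA targets, the 20 largest increases and decreases that reach 2 FPKM and lie at least 0.5 in the same direction from the median of the other 11 knockdowns, the genes set apart, and up to 6 members of each list with the largest differences. Some genes that this rule names are not reported here. Other genes named, small RNA entries and lists described as added were chosen after their values were seen. The library labelled siMALAT1 had 21.7 FPKM under the symbol MALAT1 against 16.4 FPKM in siControl2, which goes against its label. Of 1933 genes kept under an Ensembl ID, 1013 matched a symbol. Gene order, promoter windows and the TERC end come from RefSeq and GENCODE annotations of GRCh38, which is not the build of the files, and serve for names and sequences only. Alternatives were another pseudocount, other filters, quantile normalization, centring, small RNA entries kept, another margin and another reference.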

Additional observations from a re-analysis of the deposited data

How the results depend on the processing

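Of the settings tried, the reference moved the list medians most, by up to 1.52. With siControl2 replaced by the median of the other 11 libraries, the BRCA1 difference was -0.61, 35 genes were 2-fold higher and 92 lower, and the p53 list median was 0.092. Under that reference 9 of 20 list medians changed sign, to 0.52 for homologous recombination, 0.17 for Fanconi anemia, 0.28 for the DNA damage checkpoint, 0.45 for G1/S, 0.67 for G2/M, -0.082 for structured noncoding RNAs, 0.03 for end joining, 0.13 for RNA exonucleases and -0.12 for interferon signalling. So did 19 of 97 genes named, among them those past 2-fold, to 0.53 for CDCA3, 0.56 for EXO1, 0.42 for FOXM1, 0.36 for H2AFX, 0.49 for PLK1, -0.076 for ATF3 and -0.097 for VTRNA1-1. FANCD2, at 0.45, and BRCA2, at 0.88, also turned. The cause was not tested.

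A smaller pseudocount of 0.1 gave 265 genes 2-fold higher and 443 lower, and 18 and 109 set apart higher and lower. Keeping small RNA entries gave 241 higher and 249 lower, and 47 set apart higher. Without the filter on low values 14 genes were set apart higher, and with a minimum of 2 FPKM 3 were. A margin of 1 log2 unit left 0 higher and 4 lower. Quantile normalization moved no list median by more than 0.000135, and centring none by more than 0.0155. Neither could move them much, because the deposited values already had nearly the same distribution and the median difference was 0.02. Leaving out the library labelled siMALAT1, an alternative chosen after seeing the data because MALAT1 was not low there, gave 6 genes set apart higher and 53 lower. No paired analysis was possible because each group has 1 library. The depth behind the FPKM is unknown, so no counting interval can be given, and entries of low level or short length are the least certain.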

Other observations

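Genes of several other groups differed without belonging to a comparison above. CCNO, an atypical cyclin needed for making many centrioles in ciliated cells, had 16.1 FPKM in siBRCA1 and 53.2 FPKM in siControl2, and 21.9 to 60.9 FPKM in the other 11 knockdowns. MCIDAS, the neighboring regulator of the same programme, had 2.13 FPKM in siBRCA1 and 6.11 FPKM in siControl2, and 1.98 to 6.83 FPKM elsewhere. siBRCA1 was the lowest of the 13 libraries for CCNO and the second lowest for MCIDAS. All genes in these paragraphs were picked after their values were seen.

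FASN, which makes fatty acids, had 164 FPKM in siBRCA1 and 298 FPKM in siControl2, and 156 to 246 FPKM elsewhere, and its regulator SREBF1 had 48.6 FPKM in siBRCA1 and 84.5 FPKM in siControl2, and 58.0 to 92.0 FPKM elsewhere. For FASN siControl2 was the highest of the 13 libraries, and for SREBF1 siBRCA1 was the lowest. Over 24 cholesterol and fatty acid synthesis genes kept, 0 were 2-fold different in either direction and the median difference was -0.03. Signalling genes on the high side included ID1, an inhibitor of basic helix-loop-helix factors, with 88.2 FPKM in siBRCA1 and 45.9 FPKM in siControl2, and 20.9 to 112 FPKM elsewhere. IGFBP3, a carrier of insulin-like growth factors, had 103 FPKM in siBRCA1 and 54.5 FPKM in siControl2, and 9.87 to 103 FPKM elsewhere. ATF3, a stress-induced factor, had 36.1 FPKM in siBRCA1 and 8.76 FPKM in siControl2, and 10.9 to 53.1 FPKM elsewhere, so that siControl2 was below all 12 knockdowns.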
